A study of Mus musculus with 15 samples.

Results

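The matricellular gene set comprised 10 genes: Tnc (tenascin C), Spp1 (osteopontin), Postn (periostin), Fn1 (fibronectin), Sparc, Thbs1 and Thbs2 (thrombospondins), Vtn (vitronectin), Cd44 and Tgfbi. They were found by symbol among 23244 gene entries, each in 1 entry, and all 10 were among the 13845 entries with enough signal to be tested. The set was chosen by the measured levels of Tnc and Spp1, which differ strongly under +Fgf, so every value of these 2 genes in a comparison with a +Fgf group is given as a description, with no test. The RNA-Seq libraries came from mouse optic tissue made from EB5 Rx::GFP+/- embryonic stem cells by SFEBq, a serum-free floating aggregate culture in which 3000 cells were reaggregated per well with 4% Matrigel, itself a basement membrane extract. Rx::GFP marks the eye field, and GFP+ epithelium was taken with forceps rather than by a cell sorter. Tissue collected at Day 10 without further culture formed the Day 10 Rx::GFP+ group. The other explants went into retinal maturation medium and were collected at Day 12 or Day 15: +Fgf tissue received 5 ng/mL human recombinant bFgf together with 10% FBS, and is called neural retina, and +Wnt tissue received the GSK3 inhibitor CHIR99201 at 3 uM for the first 24 hours and 1 uM afterwards, and is called retinal pigmented epithelium. Each of the 5 groups had 3 replicates, all from the same stem cell line. Before aggregation, the culture medium of that line also held CHIR99201 and PD0325901. Serum was listed for the +Fgf medium only, so bFgf and serum cannot be told apart, and FBS itself carries fibronectin and vitronectin protein, which mRNA libraries do not measure.

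Matricellular proteins are secreted into the extracellular matrix but do not mainly build it. They bind cell surface receptors, growth factors and structural matrix proteins, and loosen or change how cells hold to their surroundings. In the eye they are known from retinal development, from the pigment epithelium and its basement membrane, and from wounded or scarring tissue. Tenascin C, osteopontin, fibronectin, vitronectin and periostin are ligands of integrins. Fibronectin and vitronectin are adhesive scaffold proteins, thrombospondins also bind CD47, and CD44 is a cell surface receptor for hyaluronan that also binds osteopontin.

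Upstream sequences are shown for the 2 genes that define the set and for Postn and Cd44, which follow other patterns below, so that the starts from which they are transcribed can be compared. RefSeq promoter entries (GRCm38.p6) were present for 8 of the 10 genes, not for Fn1 and Thbs1. The 250 bases before the start are given 5′ to 3′ on the strand of the gene, with any TATAAA match in capitals. The windows are chr4:64047016-64047265 (minus strand) for Tnc, chr5:104434861-104435110 (plus) for Spp1, chr3:54360857-54361106 (plus) for Postn and chr2:102901666-102901915 (minus) for Cd44.
Tnc: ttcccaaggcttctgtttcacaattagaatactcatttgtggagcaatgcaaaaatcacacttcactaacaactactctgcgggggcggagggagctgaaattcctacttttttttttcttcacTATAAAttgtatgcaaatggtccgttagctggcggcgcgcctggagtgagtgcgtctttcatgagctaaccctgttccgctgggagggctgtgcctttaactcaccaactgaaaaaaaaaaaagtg
Spp1: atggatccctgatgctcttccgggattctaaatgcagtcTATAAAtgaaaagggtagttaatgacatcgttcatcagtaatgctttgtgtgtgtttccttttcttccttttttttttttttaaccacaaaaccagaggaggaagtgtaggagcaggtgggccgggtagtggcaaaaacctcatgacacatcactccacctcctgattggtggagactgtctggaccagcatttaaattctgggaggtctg
Postn: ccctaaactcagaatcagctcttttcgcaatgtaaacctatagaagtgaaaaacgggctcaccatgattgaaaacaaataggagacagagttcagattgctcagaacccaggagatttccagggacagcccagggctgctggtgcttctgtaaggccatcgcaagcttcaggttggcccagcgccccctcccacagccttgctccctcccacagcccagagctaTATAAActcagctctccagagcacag
Cd44: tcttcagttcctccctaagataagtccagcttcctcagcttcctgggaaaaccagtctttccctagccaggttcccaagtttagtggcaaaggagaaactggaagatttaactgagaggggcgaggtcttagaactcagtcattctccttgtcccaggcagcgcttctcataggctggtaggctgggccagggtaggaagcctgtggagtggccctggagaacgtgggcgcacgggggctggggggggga
The TATAAA match began 126 bases before the start in Tnc, 211 in Spp1 and 26 in Postn, and Cd44 held none. Vtn also held it on its own strand, beginning 135 bases before the start, and Thbs2 held it on the opposite strand. On either strand TATAAA was present in 12.4% of the 32851 mouse promoter windows of the same length. Neither TGANTCA, the AP-1 motif (6.75% of windows), nor CTTTGA, the TCF/LEF motif (13.8%), nor the CArG box of serum response factor (1.47%) was found on either strand in the 8 windows. A match or its absence describes these letters only.

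Tnc lies at chr4:63959785-64047015 on the minus strand of GRCm38, the assembly also called mm10, and the longest GENCODE transcript matched to its RefSeq accession has 26 exons. Spp1 lies at chr5:104435118-104441050 on the plus strand with 7 exons. Exons of Tnc overlap 8030451A03Rik, those of Fn1 overlap Apol7d and those of Thbs1 overlap Gm29233, all on the opposite strand, and those of Spp1 overlap Gm42793 on the same strand. The library kit keeps strand, but the strand setting of the authors' counting was not given in the sources used here, so reads of these pairs may not have been told apart. Values are CPM, the reads of a gene scaled to library size, as normalized by the authors. The libraries held between 12556998 and 16175450 reads in genes, and 1 read was worth 0.0620 to 0.0764 CPM.

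Markers of the labelled tissues were present with 1 exception. The 5 retinal progenitor markers (Rax, Six3, Six6, Lhx2 and Pax6) summed to 1610.2 to 1794 CPM at Day 10, 1579.6 to 1714 at Day 12 +Fgf and 1690.1 to 1736 at Day 15 +Fgf, against 719 to 768 at Day 12 +Wnt and 489.7 to 537 at Day 15 +Wnt. The 6 pigment epithelium markers (Mitf, Tyr, Tyrp1, Dct, Pmel and Rpe65) summed to 4982 to 6476 CPM at Day 15 +Wnt, against 218 to 1463 CPM over the libraries of the other groups, and Rpe65, a gene of mature pigment epithelium, was at 0 in every Day 15 +Wnt library. In bulk tissue fewer cells of a type and less RNA per cell cannot be told apart.

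Tnc, whose protein is an anti-adhesive glycoprotein of embryonic and healing tissue, was low in the starting epithelium. Its level was 2.52, 1.14 and 2.06 CPM in the 3 Day 10 libraries and 147, 121 and 212 CPM in the Day 12 +Fgf libraries. It was 15.6, 17.0 and 34.0 CPM at Day 15 +Fgf, so every +Fgf library lay above every Day 10 library, and every Day 15 library lay below every Day 12 library. As a description, the ratio of mean CPM was 84.0 from Day 10 to Day 12 +Fgf, and the mean at Day 12 +Fgf was 7.22 times that at Day 15 +Fgf. Under +Wnt the level was 0.629, 1.60 and 1.72 CPM at Day 12, overlapping with Day 10, and 54.2, 41.5 and 42.8 CPM at Day 15. From Day 10 to Day 12 +Wnt the log2 fold change of Tnc was -0.47 (95% confidence interval -1.16 to 0.21), which did not pass the test (limma, adjusted p = 0.218). Between Day 12 and Day 15 under +Wnt Tnc rose 30.2-fold (log2 fold change 4.92 ± 0.32 SE, n = 3 per group, adjusted p = 1.25e-09), and the log2 fold change was higher than that of 99.9% of genes tested. The mean Day 15 +Wnt level of 46.1 ± 6.98 CPM (SD, n = 3) was 24.2 times the Day 10 mean of 1.91 ± 0.705 CPM (log2 fold change 4.44, adjusted p = 1.36e-09). Tnc was therefore high at Day 12 under +Fgf and at Day 15 under +Wnt, with the group levels in the order Day 12 +Fgf, Day 15 +Wnt, Day 15 +Fgf, Day 10 and Day 12 +Wnt, the last 2 overlapping.

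Spp1, a secreted phosphoprotein that binds integrins and CD44, spread widely between the Day 12 +Fgf libraries. It stood at 6.13, 10.2 and 8.02 CPM at Day 10 and at 434, 293 and 870 CPM at Day 12 +Fgf. By Day 15 +Fgf it was back at 12.6, 11.5 and 18.9 CPM, just above the highest Day 10 library. The 3 Day 12 +Fgf libraries spread 2.97-fold, the third being the highest, and the mean there was 37.1 times that at Day 15 +Fgf. Under +Wnt Spp1 was 22.3, 14.0 and 12.4 CPM at Day 12 and 80.8, 53.3 and 52.2 CPM at Day 15, and both +Wnt groups lay above Day 10 without overlap. The rise from Day 10 to Day 12 +Wnt was 1.94-fold (limma, log2 fold change 0.96 ± 0.32 SE, adjusted p = 0.0159). It did not pass without Day 10 replicate 1 (0.78, adjusted p = 0.0715), without Day 12 +Wnt replicate 1 (0.71, adjusted p = 0.0874), with edgeR on the recovered reads (1.01, adjusted p = 0.0761) or after quantile normalization (0.74, adjusted p = 0.0609). Spp1 then rose 3.82-fold to Day 15 +Wnt (log2 fold change 1.93 ± 0.32 SE, adjusted p = 4.41e-05), to 7.42 times the Day 10 level (log2 fold change 2.89, adjusted p = 2.61e-07). Day 15 +Fgf and Day 12 +Wnt overlapped in Spp1, between Day 10 below and Day 15 +Wnt above.

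The log2 levels of other genes correlated with those of Tnc and Spp1 over the 15 libraries. A correlation does not measure the size of a change. The 5 genes most like Tnc by Pearson r were Ptprn (0.980), Fam129b (0.979), Elk3 (0.972), Ifi35 (0.969) and Pxdc1 (0.967). Elk3, an ETS transcription factor, stood at 6.53 ± 0.599 CPM at Day 10, 31.3 ± 4.58 at Day 12 +Fgf, 15.3 ± 0.470 at Day 15 +Fgf, 7.27 ± 0.788 at Day 12 +Wnt and 18.5 ± 0.682 at Day 15 +Wnt (SD, n = 3). For Spp1 they were Dock8 (0.935), 6330403K07Rik (0.926), Apobec3 (0.920), Ehbp1l1 (0.915) and Mmp9 (0.912), a secreted protease. The sizes of change differed: Fam129b averaged 34.2 CPM at Day 10 and 72.3 at Day 12 +Fgf. Apobec3 averaged 7.41 and 14.3 CPM in these groups, and Mmp9 0.307 and 57.5 CPM. Ranked by Spearman's rho, 1 of the 5 genes remained for Tnc and 0 of 5 for Spp1. The points share groups of 3 libraries, and these coefficients, like the r of 0.83 between Tnc and Spp1 themselves, describe these libraries only.

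**Figure D1:**
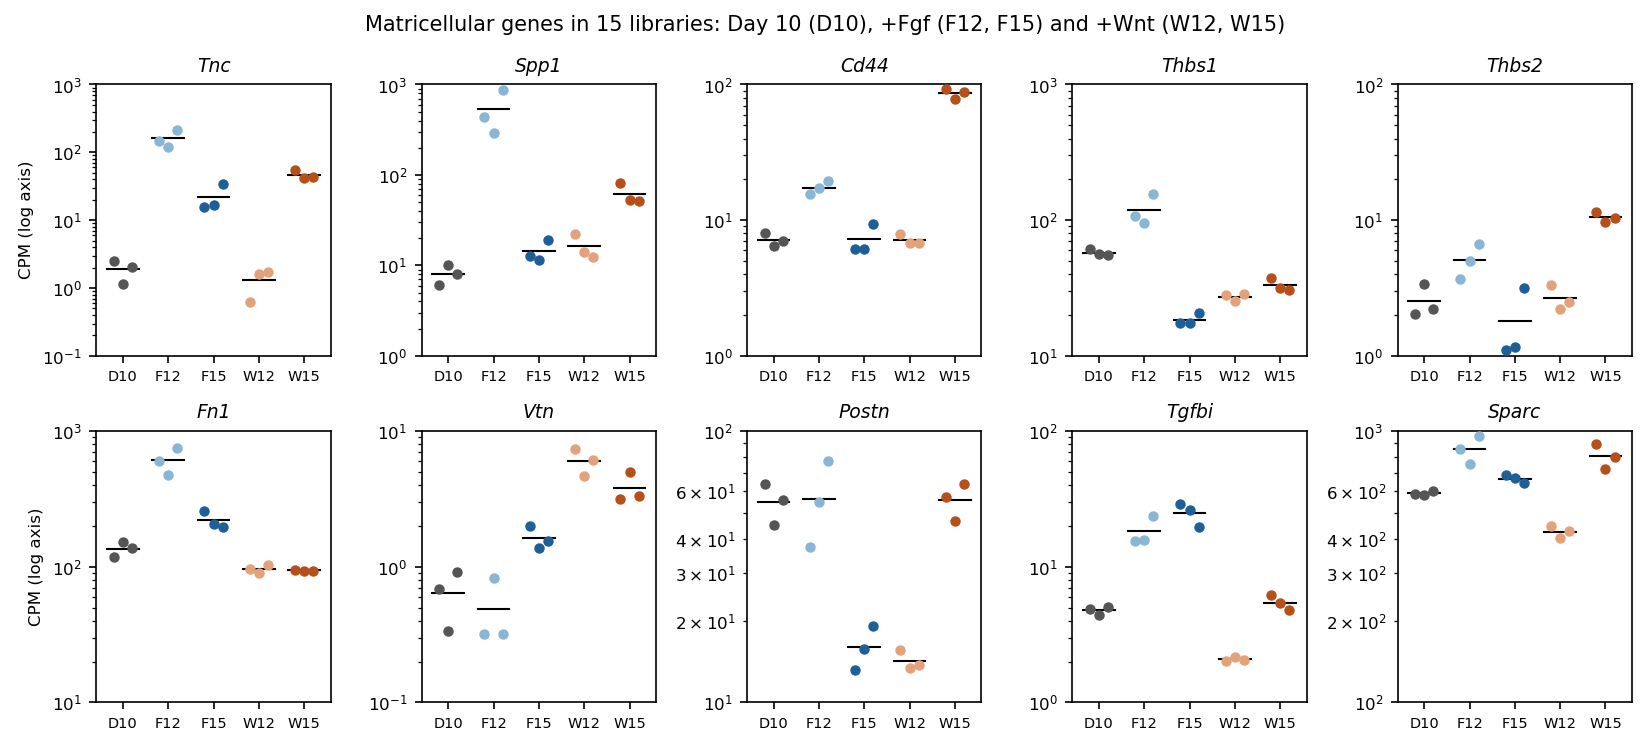
CPM (log axis, a separate range in each panel) of the 10 genes in each library; points are the 3 replicates of a group in order 1 to 3 and the line is their mean, with Day 10 in grey, +Fgf in blue and +Wnt in orange. Tnc and Spp1 are highest at Day 12 +Fgf (F12) and next highest at Day 15 +Wnt (W15), while Cd44 and Thbs2 are highest at Day 15 +Wnt.

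Cd44, the receptor of the set, peaked in the other medium. It was 8.11, 6.48 and 7.03 CPM at Day 10, 15.6, 17.3 and 19.3 CPM at Day 12 +Fgf and 6.12, 6.18 and 9.33 CPM at Day 15 +Fgf. Under +Wnt it was 7.86, 6.82 and 6.82 CPM at Day 12 and 92.4, 78.0 and 88.3 CPM at Day 15. Cd44 rose 2.36-fold from Day 10 to Day 12 +Fgf (limma, log2 fold change 1.24 ± 0.14 SE, adjusted p = 2.15e-06) and fell by 1.26 on the log2 scale from Day 12 to Day 15 +Fgf (adjusted p = 1.33e-06), to values that overlapped with Day 10. In +Wnt tissue it differed from Day 10 by a log2 fold change of -0.01 at Day 12 (95% confidence interval -0.31 to 0.30, adjusted p = 0.978) and then rose 11.6-fold to Day 15 (3.53 ± 0.14 SE, adjusted p = 6.01e-12). At Day 15 the +Wnt mean of 86.2 ± 7.41 CPM was 12.0 times the +Fgf mean of 7.21 ± 1.83 CPM (adjusted p = 1.93e-12). The files count Cd44 per gene and do not separate its splice forms.

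The list of 13 hyaluronan and CD44 partner genes, 12 of them tested, had 3 members higher and 7 lower from Day 12 to Day 15 +Wnt (median log2 fold change -0.33, against -0.02 over all genes tested, of which 32.5% were higher and 35.5% lower). Has3, a hyaluronan synthase, rose 4.72-fold, from 4.29 ± 0.682 to 21.2 ± 0.670 CPM (limma, log2 fold change 2.24 ± 0.17 SE, adjusted p = 6.09e-09). Has2, another synthase, fell from 25.8 ± 3.74 to 12.2 ± 0.427 CPM (-1.05, adjusted p = 1.31e-05), and Hmmr, an intracellular hyaluronan-binding protein of dividing cells, fell from 103 ± 2.54 to 49.0 ± 2.75 CPM (-1.07, adjusted p = 6.15e-10). Has3 and Cd44 thus rose over the same interval in which most of the list that changed fell. At Day 15 Hapln1, a link protein that fixes hyaluronan to proteoglycans, was 10.8, 8.93 and 11.6 CPM under +Fgf, while under +Wnt 1 library held 0.186 CPM and the others were at 0 (adjusted p = 1.47e-11). Msn (moesin), which ties CD44 to the actin cortex, was 284 ± 26.2 CPM at Day 12 +Fgf and 99.0 ± 9.88 CPM at Day 12 +Wnt (log2 fold change 1.52, adjusted p = 3.31e-11).

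The thrombospondins differed from each other. Thbs1, known as an activator of latent TGF-beta and an inhibitor of blood vessel growth, was 60.8, 56.3 and 55.2 CPM at Day 10 and 108, 94.7 and 155 CPM at Day 12 +Fgf. It was 17.4, 17.5 and 20.7 CPM at Day 15 +Fgf, the lowest libraries for this gene. It rose 2.03-fold to Day 12 +Fgf (limma, adjusted p = 8.28e-06) and then fell by 2.64 on the log2 scale (± 0.13 SE, adjusted p = 1.3e-10). Under +Wnt Thbs1 was 28.1, 25.4 and 28.7 CPM at Day 12, a fall of 1.06 on the log2 scale from Day 10 (adjusted p = 4.13e-06). At Day 15 +Wnt it was 37.2, 31.5 and 30.7 CPM, a log2 fold change of 0.27 that did not pass (adjusted p = 0.0846), although the libraries did not overlap. It passed in the fits without Day 12 +Fgf replicate 2 (adjusted p = 0.047) or replicate 3 (adjusted p = 0.0139), which take no part in that difference and change only the shared estimate of spread. It also passed in the limma fit with only the compared samples (adjusted p = 0.0189).

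Thbs2 was scarcer, at 2.04, 3.41 and 2.22 CPM at Day 10, 3.68, 4.97 and 6.71 CPM at Day 12 +Fgf and 1.11, 1.17 and 3.18 CPM at Day 15 +Fgf. Under +Wnt it was 3.33, 2.23 and 2.52 CPM at Day 12 and 11.4, 9.69 and 10.5 CPM at Day 15, so its highest libraries were those of Day 15 +Wnt. That rise was 3.65-fold (limma, log2 fold change 1.87 ± 0.30 SE, adjusted p = 3.37e-05), and Thbs2 was 5.60-fold lower in Day 15 +Fgf than in Day 15 +Wnt (adjusted p = 1.39e-06). The rise to Day 12 +Fgf (0.92, adjusted p = 0.016) did not pass without Day 10 replicate 1 (0.79, adjusted p = 0.0619) or replicate 3 (0.84, adjusted p = 0.0525), without Day 12 +Fgf replicate 3 (0.71, adjusted p = 0.0814) or with RNA integrity as a covariate (0.60, adjusted p = 0.29). Over the 15 libraries Thbs2 ran most closely with Cd44 among the members (r = 0.915).

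Fn1 and Vtn, the adhesive scaffold proteins, went in different directions. Fn1 was 118, 153 and 137 CPM at Day 10 and 597, 471 and 751 CPM at Day 12 +Fgf, a 4.39-fold rise (limma, log2 fold change 2.13 ± 0.13 SE, adjusted p = 1.91e-09). It was 257, 207 and 197 CPM at Day 15 +Fgf, a fall of 1.44 on the log2 scale from Day 12 (adjusted p = 1.08e-07), still 1.62-fold above Day 10 (adjusted p = 0.00016). Under +Wnt it was 95.5, 89.9 and 103 CPM at Day 12 and 94.9, 93.3 and 93.6 CPM at Day 15. The fall from Day 10 to Day 12 +Wnt was 1.41-fold (-0.49, adjusted p = 0.00389) and did not pass with RNA integrity as a covariate (-0.42, adjusted p = 0.0572). Between Day 12 and Day 15 +Wnt the difference was a log2 fold change of -0.03 (95% confidence interval -0.31 to 0.25), whose sign flipped under both rescalings of the values.

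Vtn was scarce before and early in +Fgf culture, with 0.681, 0.334 and 0.917 CPM at Day 10 and 0.317, 0.828 and 0.319 CPM at Day 12 +Fgf, or 5 to 13 reads. It was 7.36, 4.66 and 6.16 CPM at Day 12 +Wnt, 3.16, 5.00 and 3.30 CPM at Day 15 +Wnt and 1.99, 1.37 and 1.55 CPM at Day 15 +Fgf. Only 9 of the 15 libraries reached 1 CPM, the level used to decide which genes were tested, and none of these belonged to Day 10 or Day 12 +Fgf. Vtn rose 6.87-fold from Day 10 to Day 12 +Wnt (limma, log2 fold change 2.78 ± 0.29 SE on the log2(CPM + 0.3) scale, adjusted p = 5.23e-07), and the ratio of the mean CPM was 9.41. At Day 12 it was 8.29-fold lower under +Fgf than under +Wnt (adjusted p = 1.64e-07), the member of the 8 tested there that was lower under +Fgf. From Day 12 to Day 15 +Fgf it rose 2.55-fold (adjusted p = 0.000781), a call lost with RNA integrity as a covariate (1.51, adjusted p = 0.076). The difference of -0.63 between Day 12 and Day 15 +Wnt on the log2 scale did not pass (limma, adjusted p = 0.0625). It passed without Day 10 replicate 2 (adjusted p = 0.044), Day 12 +Fgf replicate 2 (adjusted p = 0.0383), Day 12 +Wnt replicate 2 (-0.80, adjusted p = 0.0406) or Day 15 +Wnt replicate 2 (-0.83, adjusted p = 0.0319). It also passed with a pseudocount of 1 (-0.55, adjusted p = 0.0187), with only the compared samples (adjusted p = 0.0195) and after quantile normalization (-1.26, adjusted p = 0.000518).

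Postn and Tgfbi encode related fasciclin-domain proteins, which bind integrins and collagen. Postn was 63.8, 45.1 and 55.5 CPM at Day 10 and 37.4, 54.5 and 77.2 CPM at Day 12 +Fgf, overlapping values with a log2 fold change of -0.01 (95% confidence interval -0.43 to 0.42, limma, adjusted p = 0.982). It was lower at Day 15 +Fgf, with 13.1, 15.7 and 19.2 CPM, and at Day 12 +Wnt, with 15.6, 13.4 and 13.7 CPM. It then stood at 57.2, 46.8 and 63.6 CPM at Day 15 +Wnt. The fall from Day 10 to Day 12 +Wnt was 3.76-fold (-1.91 ± 0.20 SE, adjusted p = 6.22e-07) and the rise to Day 15 +Wnt was 3.84-fold (1.94 ± 0.20 SE, adjusted p = 2.72e-07). The Day 15 +Wnt libraries overlapped with Day 10 again (log2 fold change 0.03, 95% confidence interval -0.40 to 0.46). In +Fgf the fall came later, 3.37-fold from Day 12 to Day 15 (-1.75, adjusted p = 1.53e-06).

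Tgfbi was 4.91, 4.41 and 5.04 CPM at Day 10, 15.5, 15.7 and 23.6 CPM at Day 12 +Fgf and 29.2, 26.0 and 19.7 CPM at Day 15 +Fgf. Its level at Day 15 +Fgf was 4.91-fold above Day 10 (limma, log2 fold change 2.30 ± 0.17 SE, adjusted p = 2.47e-09) and 4.36-fold above Day 15 +Wnt (adjusted p = 8e-09). Tgfbi thus stayed high in +Fgf tissue at the age when most other members had fallen. The rise from Day 12 to Day 15 +Fgf (0.45, adjusted p = 0.0291) overlapped between groups. It did not pass without Day 12 +Fgf replicate 1 (0.35, adjusted p = 0.131) or replicate 2 (0.36, adjusted p = 0.116), or without Day 15 +Fgf replicate 1 (0.33, adjusted p = 0.137) or replicate 2 (0.42, adjusted p = 0.0848), and its sign turned with RNA integrity as a covariate (-0.36, adjusted p = 0.324). Under +Wnt it was 2.01, 2.16 and 2.05 CPM at Day 12 and 6.20, 5.37 and 4.77 CPM at Day 15. It fell by 1.10 on the log2 scale from Day 10 to Day 12 +Wnt (adjusted p = 3.19e-05) and rose by 1.27 to Day 15 (adjusted p = 4.24e-06).

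Sparc, a collagen-binding counter-adhesive protein of basement membranes, was high in every library and varied least, 2.38-fold between its lowest and highest. It was 586, 579 and 603 CPM at Day 10, 862, 754 and 960 CPM at Day 12 +Fgf and 686, 672 and 643 CPM at Day 15 +Fgf. Under +Wnt it was 447, 403 and 427 CPM at Day 12 and 897, 727 and 799 CPM at Day 15. It rose 1.45-fold to Day 12 +Fgf (limma, log2 fold change 0.54 ± 0.08 SE, adjusted p = 2.2e-05), fell 1.38-fold to Day 12 +Wnt (-0.47, adjusted p = 6.65e-05) and rose 1.89-fold from Day 12 to Day 15 +Wnt (0.92, adjusted p = 2.13e-08). Of the other members, Sparc correlated most closely with Tnc in log2 level over the 15 libraries (Pearson r = 0.89, Spearman's rho = 0.936). Its differences were much smaller. The difference between Day 15 +Fgf and Day 10 (0.18, adjusted p = 0.0469) was lost in 9 of the 15 fits that each left out 1 library (adjusted p from 0.0501 to 0.116): Day 10 replicates 1, 2 and 3, Day 12 +Fgf replicate 1, Day 12 +Wnt replicates 2 and 3, Day 15 +Fgf replicates 1 and 2, and Day 15 +Wnt replicate 3. This call was also lost with RNA integrity as a covariate (0.12, limma adjusted p = 0.265). The same held in limma with no trend (adjusted p = 0.0898) or no filter on low values (adjusted p = 0.0716).

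**Figure D2:**
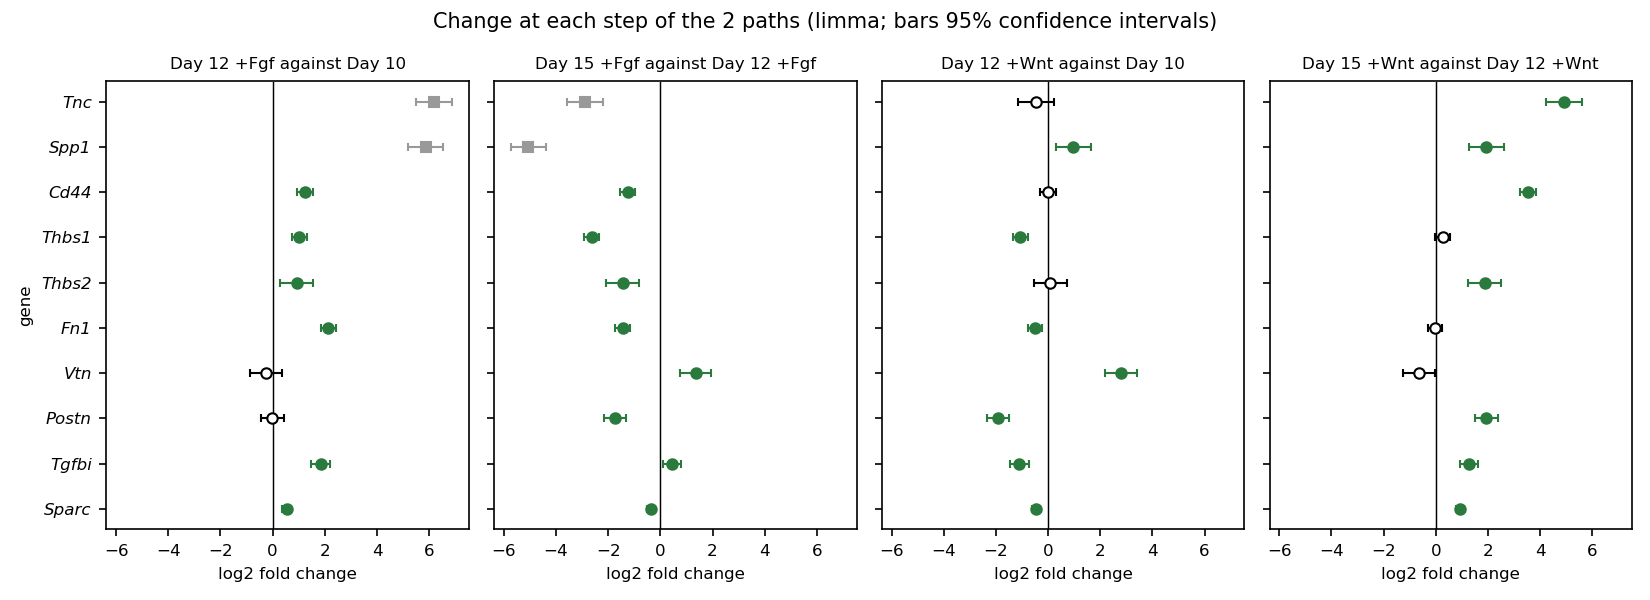
Log2 fold change (limma, on log2(CPM + 0.3)) of each gene at the 4 steps, with 95% confidence intervals as bars; filled green circles passed an adjusted p of 0.05, open circles did not, and grey squares are the values of Tnc and Spp1 under +Fgf that are described without a test. From Day 12 to Day 15 most genes lie left of 0 under +Fgf and right of 0 under +Wnt.

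Counts over the members are read against the share of all genes that passed. From Day 10 to Day 12 +Fgf, 6 of the 8 members other than Tnc and Spp1 passed, all higher, where 55.7% of all genes tested passed, 27.9% higher and 27.8% lower; 6 of 8 did not overlap between groups, against 61% of genes, and without Day 12 +Fgf replicate 3 the count was 5. From Day 10 to Day 12 +Wnt, 7 of 10 passed, 2 higher and 5 lower, where 60.2% of genes passed, 30.6% higher and 29.6% lower (1 higher and 5 lower after quantile normalization). Postn, Fn1, Sparc, Thbs1 and Tgfbi fell there, while Spp1 and Vtn rose. From Day 12 to Day 15 +Fgf, 8 of 8 passed, 2 higher and 6 lower (57.1% of genes, 27.2% higher and 29.9% lower), with 5 of 8 passing, all lower, when RNA integrity was a covariate, and 1 higher and 6 lower after quantile normalization. By the study's values, RNA integrity was lower in every Day 15 +Fgf library than in every Day 12 +Fgf or Day 15 +Wnt library. It was also lower in every Day 10 library than in every Day 12 library of either medium and every Day 15 +Wnt library. RNA integrity and group thus cannot be cleanly separated in comparisons between those groups. With RNA integrity as a covariate, Thbs2 lost its call at Day 12 +Fgf against Day 10, and Fn1 at Day 12 +Wnt against Day 10. Tgfbi gained a call at Day 15 +Wnt against Day 10. From Day 12 to Day 15 +Wnt, 7 of 10 passed, all higher, where 68% of genes passed, 32.5% higher and 35.5% lower (7 higher and 1 lower after quantile normalization). These were Tnc, Spp1, Cd44, Postn, Thbs2, Tgfbi and Sparc, and the count was also 7, all higher, without Day 15 +Wnt replicate 1.

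Between the media at Day 12, 8 of 8 members passed, 7 higher and 1 lower under +Fgf (51.5% of genes passed, 26.3% higher and 25.2% lower), or 7 of 8 without Day 12 +Fgf replicate 3. Thbs2 was the weakest of these (0.84, limma adjusted p = 0.0277). It did not pass without Day 12 +Fgf replicate 2 (adjusted p = 0.0556) or replicate 3 (adjusted p = 0.125), or without Day 12 +Wnt replicate 2 (adjusted p = 0.0966) or replicate 3 (adjusted p = 0.0712). At Day 15, 8 of 8 passed (68.7% of genes, 38% higher and 30.6% lower), but only Fn1 (2.33-fold) and Tgfbi were higher under +Fgf, while 6 were lower. Vtn lost its call there with RNA integrity as a covariate (-0.92, limma adjusted p = 0.19). Against Day 10, 6 of 8 passed at Day 15 +Fgf, 4 higher and 2 lower (72.6% of genes, 36.2% higher and 36.4% lower; 4 and 4 after quantile normalization), and 8 of 10 at Day 15 +Wnt, 6 higher and 2 lower (79.8% of genes, 39.6% higher and 40.2% lower). These comparisons share libraries with those above.

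The change from Day 12 to Day 15 itself differed between the media for all 8 tested members, in 7 of them downward in +Fgf relative to +Wnt (47.9% of genes passed this test, 20.9% in that direction and 27% in the other). The differences in log2 change were -4.79 ± 0.20 SE for Cd44 (limma interaction, adjusted p = 5.75e-11), -3.69 ± 0.28 for Postn (adjusted p = 3.5e-08), -3.32 ± 0.42 for Thbs2 (adjusted p = 8.18e-06) and -2.91 ± 0.19 for Thbs1 (adjusted p = 6.21e-09). Vtn was the exception, with 1.98 ± 0.41 (adjusted p = 0.000785). Tgfbi had the smallest difference, -0.81 ± 0.24 (adjusted p = 0.0096).

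Within a group the libraries did not spread evenly. Day 12 +Fgf replicate 3 was the highest of its group for 9 of the 10 members, all but Vtn, while it was the highest for 38.0% of all genes tested. The summed level of the 8 members other than Tnc and Spp1 was 1639, 1413 and 1993 CPM in the 3 Day 12 +Fgf libraries. It was 845 to 865 CPM at Day 10, 548 to 606 at Day 12 +Wnt, 915 to 1012 at Day 15 +Fgf and 996 to 1199.5 at Day 15 +Wnt, so each Day 12 +Fgf library lay above all libraries of the other groups in this sum. Most of the sum was Sparc and Fn1, with means of 858 and 606 CPM at Day 12 +Fgf. Cd44, Thbs2, Vtn and Tgfbi had their highest means in other groups. Day 15 +Wnt replicate 1 was the highest of its group for 8 of 10 members (33.3% of all genes).

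Levels can be compared between genes only per length, here as CPM per kb of the longest GENCODE transcript matched to each gene's RefSeq accession. On that scale Sparc led in every group but Day 12 +Fgf, with 256 ± 5.31 CPM per kb at Day 10 (SD, n = 3) and 351 ± 37.2 at Day 15 +Wnt. At Day 12 +Fgf Spp1 averaged 377 ± 213 CPM per kb beside 373 ± 44.9 for Sparc, values that did not differ beyond their spread. Tnc was the lowest member at Day 10, with 0.269 ± 0.0993 CPM per kb, and stood at 22.6 ± 6.61 at Day 12 +Fgf, behind Spp1, Sparc and then Fn1 with 72.9 ± 16.9. Cd44 was at 1.28 ± 0.107 CPM per kb at Day 12 +Wnt, below Vtn, and at 15.4 ± 1.32 at Day 15 +Wnt, above Fn1.

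**Figure D3:**
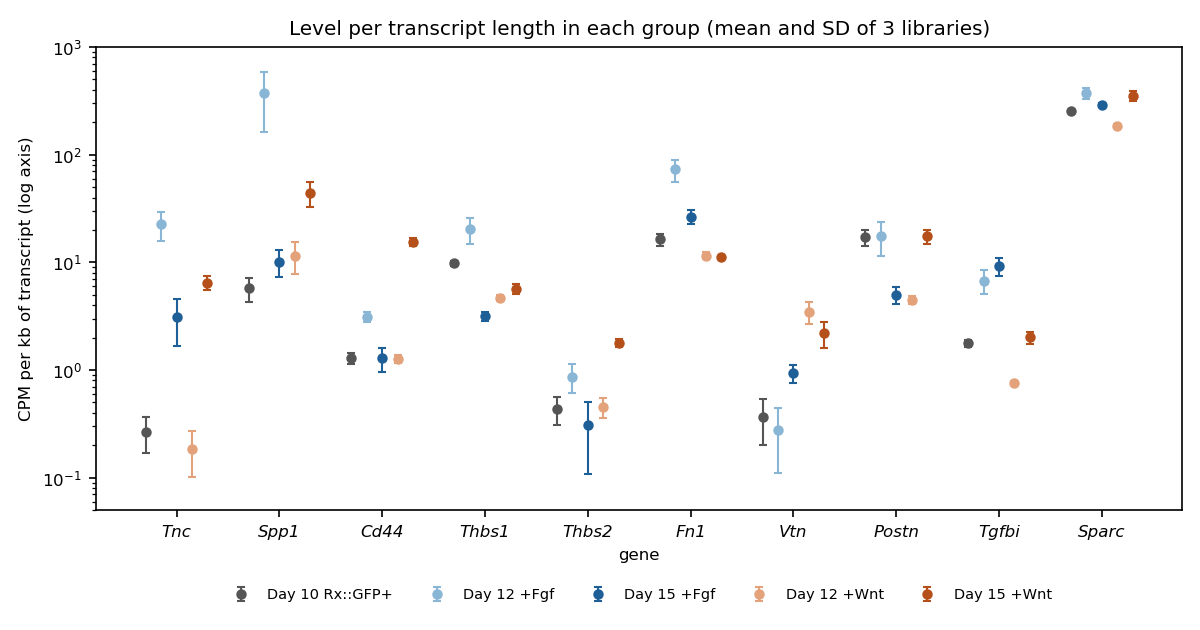
Mean CPM per kb of transcript (log axis) of each gene in the 5 groups; points are means of 3 libraries and bars are the SD. Sparc stays between 185 and 373 CPM per kb, while Tnc ranges from 0.185 to 22.6 and Spp1 from 5.75 to 377.

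Other matricellular genes were taken from a list of 29, of which 21 were tested. From Day 10 to Day 12 +Fgf 13 rose and 1 fell (median log2 fold change 0.72, against 0.00 over all genes tested, of which 27.9% rose and 27.8% fell), with the same counts without Day 12 +Fgf replicate 3. Fbln2 (fibulin 2) rose from 1.96 ± 0.582 to 30.6 ± 10.6 CPM (limma, log2 fold change 3.76 ± 0.24 SE, adjusted p = 3.42e-09). Sparcl1, a relative of Sparc, rose from 0.749 ± 0.0618 to 12.1 ± 1.13 CPM (3.56, adjusted p = 3.83e-10), and Spock1, a testican proteoglycan, from 10.8 ± 3.29 to 86.7 ± 21.1 CPM (3.00, adjusted p = 6.84e-09). Between Day 12 and Day 15 +Wnt 16 rose and 2 fell (median 1.50, against -0.02 over all genes tested, of which 32.5% rose and 35.5% fell). Among the 16, Tnn and Tnr were tested only because of their level at Day 15 +Wnt, and without them 14 of 19 rose and 2 fell (median 0.87). Sparcl1 rose 23.1-fold to 36.5 ± 7.19 CPM (adjusted p = 7.51e-12), Fbln5 9.99-fold to 19.4 ± 3.32 CPM (adjusted p = 1.25e-08) and Fbln2 7.38-fold to 33.8 ± 4.91 CPM (adjusted p = 2.23e-08). From Day 10 to Day 12 +Wnt 10 rose and 3 fell, where 60.2% of all genes passed, or 8 and 3 after quantile normalization, and the falls included Cyr61 (53.2 ± 0.975 to 12.7 ± 1.42 CPM, adjusted p = 9.69e-10) and Ctgf (35.5 ± 2.89 to 11.8 ± 0.944 CPM, adjusted p = 6.96e-07), CCN proteins that respond to mechanical and serum signals.

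Of 18 receptors and surface partners, 16 were tested. At Day 12, 14 were higher and 1 lower under +Fgf than under +Wnt (median 1.10, against 0.00 over all genes tested, of which 26.3% were higher and 25.2% lower), or 13 and 1 without Day 12 +Fgf replicate 3. Itgb3 and Plaur were tested only because of their level at Day 12 +Fgf, and without them 12 of 14 were higher and 1 lower (median 1.00). Itgb8, the integrin subunit that binds latent TGF-beta with the alpha v subunit, was 41.9 ± 0.540 CPM under +Fgf and 5.48 ± 0.976 CPM under +Wnt (limma, log2 fold change 2.88 ± 0.14 SE, adjusted p = 3.36e-11). Itgb5, a subunit of a vitronectin receptor, went the other way, with 40.1 ± 4.94 CPM under +Fgf and 104 ± 10.1 CPM under +Wnt (-1.37, adjusted p = 4.85e-08). Vtn and Itgb5 were thus both higher under +Wnt at Day 12, and at Day 15 Itgb5 was 44.6 ± 2.57 against 124 ± 17.3 CPM (adjusted p = 9.22e-09). Cd47, the thrombospondin receptor, rose 2.33-fold from Day 10 to Day 12 +Fgf (adjusted p = 5.18e-08). Sdc4 (syndecan 4), a coreceptor for fibronectin, rose 3.36-fold from Day 12 to Day 15 +Wnt, to 58.2 ± 3.66 CPM (adjusted p = 3.27e-11).

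Of 14 matrix cross-linking, elastic fibre and plasminogen genes, 12 were tested, and 10 rose from Day 10 to Day 12 +Fgf (median log2 fold change 0.98, against 0.00 over all genes tested, of which 27.9% rose). Both proteases that activate plasminogen rose there. Plau (urokinase) was 2.52, 2.47 and 2.45 CPM at Day 10 and 17.9, 13.3 and 28.0 CPM at Day 12 +Fgf, a 6.88-fold rise (limma, log2 fold change 2.78 ± 0.29 SE, adjusted p = 7.42e-07). Plat (tissue activator) rose 4.53-fold to 116 ± 21.0 CPM (adjusted p = 9.24e-11). To Day 15 +Fgf Plau then fell by 2.71 on the log2 scale (adjusted p = 6.98e-07) and Plat fell by 1.35 (adjusted p = 8.8e-09). Under +Wnt, from Day 12 to Day 15, Lox (lysyl oxidase) rose 17.0-fold to 20.6 ± 3.31 CPM (adjusted p = 1.9e-10), Eln (elastin) 4.81-fold to 12.9 ± 2.06 CPM (adjusted p = 2.24e-06) and Loxl1 2.31-fold to 55.6 ± 3.83 CPM (adjusted p = 3.36e-07). Fbn2 (fibrillin 2), another elastic fibre gene, fell under +Wnt, from 253 ± 13.2 CPM at Day 10 to 100.3 ± 6.32 at Day 12 (-1.33, adjusted p = 2.69e-07) and 67.1 ± 15.4 at Day 15. Of the list 6 rose and 2 fell from Day 12 to Day 15 +Wnt, a share near the 68% of all genes that passed there.

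**Figure D4:**
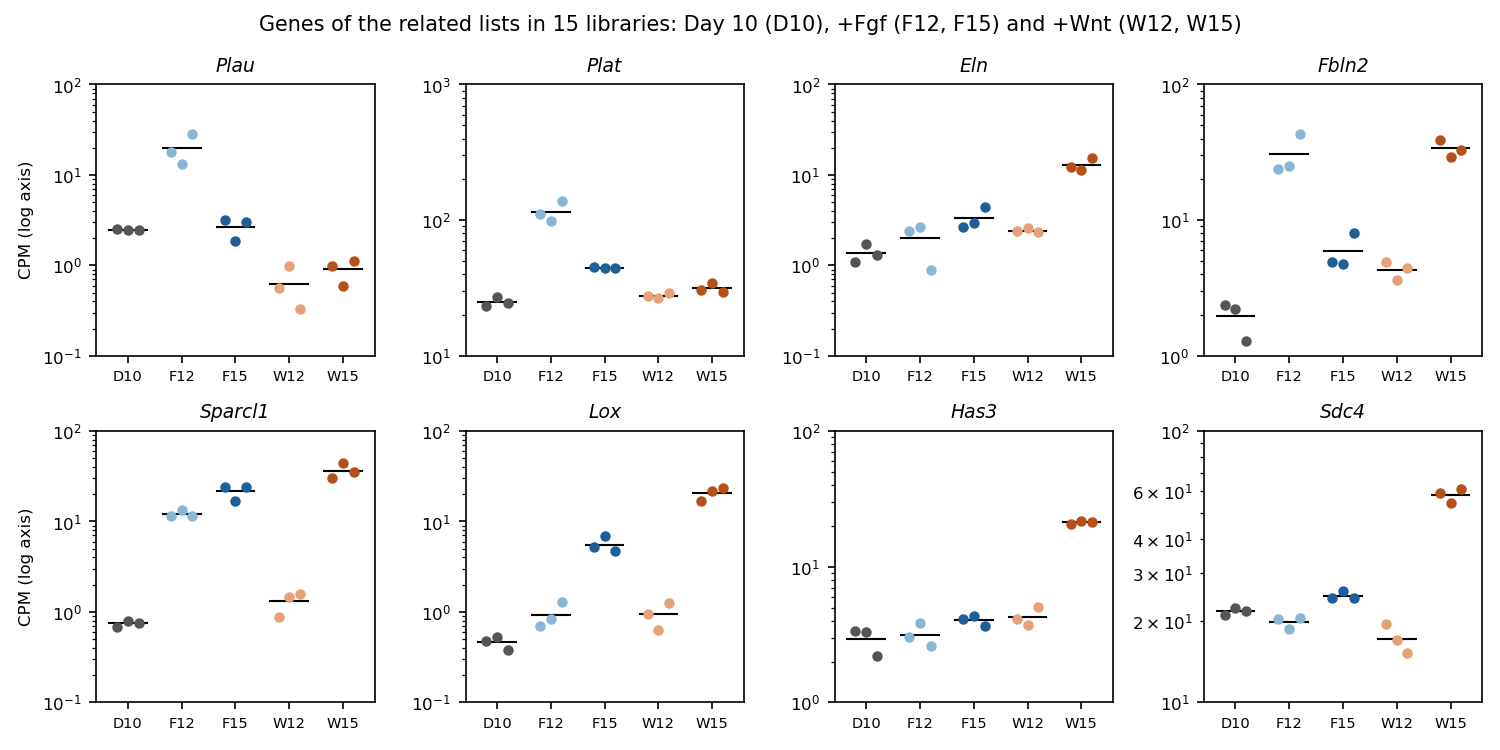
CPM (log axis, a separate range in each panel) of 8 genes from the lists in each library; points are replicates 1 to 3, the line is their mean, and the groups and colours are those of the plot of the members. Plau and Plat peak at Day 12 +Fgf, Eln, Sparcl1, Lox, Has3 and Sdc4 are highest at Day 15 +Wnt, and Fbln2 is high in both.

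Markers of other cell types moved with some of these levels. The 6 fibroblast and mesenchyme markers (Pdgfra, Twist1, Prrx1, Col1a1, Col1a2 and Col3a1) summed to 68.8 to 93.3 CPM at Day 10, 155 to 250 at Day 12 +Fgf, 116 to 145 at Day 15 +Fgf, 102 to 136 at Day 12 +Wnt and 400 to 471 at Day 15 +Wnt, in all of which every marker was above 1 CPM in some library. Of the 6, 5 rose from Day 12 to Day 15 +Wnt, where 32.5% of all genes rose. Matrix genes are also markers of such cells, and the part of these cells in the rises of Tnc, Cd44, Postn, Thbs2, Lox and Fbln5 was not tested. Macrophages and microglia are a source of osteopontin and CD44 in eyes. All 6 of their markers stayed under 1 CPM in every Day 12 +Fgf library, with sums of 0.127 to 0.319 CPM. At Day 15 +Wnt the sum was 19.2 to 21.9 CPM and rested on Csf1r, with the other 5 under 1 CPM and Ptprc, Cx3cr1 and Emr1 at 0. The part of such cells in the levels of Spp1 and Cd44 was not tested. The 5 endothelium markers summed to 100 to 171 CPM at Day 12 +Fgf and 216 to 267 CPM at Day 15 +Fgf, which rested on Kdr, a gene also used by retinal progenitors. Cdh5 stayed under 1 CPM in every Day 12 and Day 15 +Fgf library. The 5 neural crest markers summed to 15.3 to 17.7 CPM at Day 10, 35.9 to 49.8 at Day 12 and 59.1 to 96.4 at Day 15 over both media. The 5 Mueller glia and astrocyte markers summed to 499 to 801 CPM over all libraries. Not all were present: 2 of the 5 stayed under 1 CPM in every Day 10 library. The same held for 1 of the 5 at Day 12 under each medium and at Day 15 +Wnt. The 5 primitive and visceral endoderm markers reached 11.5 CPM at Day 12 +Wnt and 18.3 CPM at Day 15 +Fgf, in each group from under 1 CPM. The 4 pluripotent stem cell markers summed to 21.7 to 27.5 CPM at Day 10, 0.831 to 8.60 at Day 12 +Fgf, 11.1 to 28.9 at Day 12 +Wnt, 0.283 to 7.14 at Day 15 +Fgf and 6.20 to 28.3 at Day 15 +Wnt.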

How the data were processed

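RNA-Seq libraries (TruSeq Stranded mRNA) from 15 samples were read into 5 groups of 3 by their labels. Per the labels and the study's methods, the authors aligned reads with TopHat2 2.0.8b to mm10, used Cufflinks 2.1.1 and Cuffdiff with a UCSC mm10 transcriptome, and normalized counts with edgeR 3.2.4. The deposited values are a signal per gene that the authors call CPM; the columns sum to 936418 to 1075448. Dividing by the value of 1 read gave whole reads, within 0.02 reads, for 100% of values above 0 in every library. The study calls the replicates biological, but the labels do not say that they came from separate cultures; if they did not, p-values measure only the spread between these samples.

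The main test was limma 3.58.1 (R 4.3.3; trend, 5 group means, 15 libraries) on log2(value + 0.3) for the 13845 of 23244 entries with at least 1 CPM in at least 3 samples, with Benjamini-Hochberg adjustment per comparison at 0.05. Fold changes are on that scale and understate changes of low genes; ratios of mean CPM are named as such. edgeR 4.0.16 (quasi-likelihood) on recovered reads was an alternative and called 6236 to 11034 genes per comparison, limma 6636 to 11046. The fits were tested on simulated data with 200 changed genes, all in the Day 12 +Fgf group. Far more genes passed in the real comparisons, so the simulation does not check the fits at that share of changed genes. Other alternatives were pseudocounts of 0.05 and 1, no filter, a filter of 10 CPM, median-of-ratios and quantile scaling, no trend, only the compared samples, a replicate block, RNA integrity (from the study's methods) as a covariate, and leaving out each library.

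The members and lists were chosen with earlier results of these data known. List genes were named as the at most 3 largest passing changes per list and comparison whose higher group averaged 10 CPM or more; the 5 genes most like Tnc and Spp1 by Pearson r were also named. In addition, 1 list gene and 1 cell type marker are not reported here and were left out of the counts and sums.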

Additional observations from a re-analysis of the deposited data

Results flagged for a closer look

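The change from Day 12 to Day 15 differed between +Fgf and +Wnt tissue in the 8 genes tested, where 47.9% of all genes passed. The difference in log2 change (+Fgf minus +Wnt, limma interaction, n = 3 per group) was -3.69 for Postn, -1.41 for Fn1, -1.28 for Sparc, -2.91 for Thbs1, -3.32 for Thbs2, 1.98 for Vtn, -4.79 for Cd44 and -0.815 for Tgfbi. For Tnc it was -7.8 and for Spp1 -7: every Day 15 library lay below every Day 12 library under +Fgf and above every Day 12 library under +Wnt, a difference that was not tested, because these 2 genes were chosen for their change under +Fgf. The Tgfbi difference did not pass after quantile normalization (-0.26, adjusted p = 0.375).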

How the results depend on the processing

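Of 2019 log2 fold changes recomputed under alternatives, leaving out the values of Tnc and Spp1 that were not tested, 1945 kept their direction and side of the threshold, 35 lost the call, 14 gained one and 25 changed sign. Leaving out a library outside a comparison, the filters, no trend, only the compared samples and the replicate block leave the fold change unchanged. Those refits could move only the adjusted p, not the direction, so the total is no measure of how stable the directions are. Sign changes were in values that had not passed the test, apart from Tgfbi from Day 12 to Day 15 +Fgf. Postn from Day 10 to Day 12 +Fgf was 0.12 with RNA integrity as a covariate, 0.024 with edgeR and between -0.26 and 0.26 when 1 library was left out. Thbs2 from Day 10 to Day 12 +Wnt was -0.17 with RNA integrity and -0.10 after quantile normalization, and between -0.068 and 0.28 when 1 library was left out, below 0 without Day 10 or Day 12 +Wnt replicate 1. Cd44 there was between -0.075 and 0.080 when 1 library was left out, above 0 without Day 10 replicate 1 or Day 12 +Wnt replicate 2 or 3. Tgfbi from Day 12 to Day 15 +Fgf was -0.36 with RNA integrity. Fn1 from Day 12 to Day 15 +Wnt was 0.020 with edgeR, 0.0036 with median-of-ratios scaling, 0.072 after quantile normalization and between -0.080 and 0.020 when 1 library was left out. Cd44 at Day 15 +Fgf against Day 10 was 0.036 with RNA integrity, 0.00416 with edgeR, -0.40 after quantile normalization (limma, adjusted p = 0.0114), and between -0.21 and 0.079 when 1 library was left out. Against Day 10, at Day 15 +Wnt, Postn was between -0.10 and 0.15 when 1 library was left out, and Tgfbi was -0.64 after quantile normalization (limma, adjusted p = 0.00201) but 0.58 with RNA integrity (adjusted p = 0.00553). With RNA integrity 5 members in place of 8 passed from Day 12 to Day 15 +Fgf. The cross-linking list had 7 genes past the threshold from Day 10 to Day 12 +Wnt, 4 after quantile normalization, and 5 to 8 when 1 library was left out. By Spearman's rho 1 of the 5 genes most like Tnc and 0 of 5 for Spp1 remained. The cause of these changes was not tested. Leaving out libraries for the lists, and list genes tested only through 1 group, was added after seeing the data. With the replicate number as a block, as many members passed as without it. The counts were 6, 7, 8, 7, 8, 8, 6, 8 and 8 in the 9 comparisons. Same-numbered samples correlated between -0.387 and 0.282. With 3 libraries per group, these values cannot tell whether same-numbered samples shared a culture. Quantile normalization moved the median of all genes by -0.102, to -0.107, at Day 15 +Wnt against Day 10. Vtn did not enter the test with a filter of 10 CPM. Depth limits Vtn most, with 5 to 13 reads per library at Day 10 and Day 12 +Fgf.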
